A study of Mus musculus with 7 samples.

Results

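The genes of the collagen chains (Col), the laminin chains (Lama, Lamb and Lamc), the matrix metalloproteinases (Mmp), the tissue inhibitors of metalloproteinases (Timp), the ADAMTS and ADAMTS-like proteins and the lysyl oxidases (Lox) were described in mouse hearts with and without transgenic Nrf2. They were taken by gene symbol from a table of RNA-seq read counts, and 94 of its 14641 genes qualified. These were 38 collagen genes, 10 laminin genes, 16 metalloproteinase genes, 4 Timp genes, 21 ADAMTS and ADAMTS-like genes and 5 lysyl oxidase genes. The libraries came from whole heart lysate of male C57BL/6J mice, 4 non-transgenic (NTG, libraries 1 to 4) and 3 transgenic (mNrf2-TG, libraries 17 to 19), with 1 library per mouse. The mNrf2-TG mice carry full-length mouse Nrf2, a transcription factor of antioxidant genes, under the αMHC promoter, which is active in cardiomyocytes, and no mouse was given a treatment. The age was 7 to 8 months by the description of the series, but 6 months by the labels of the transgenic mice. The labels of the NTG mice give no age, so they do not show whether the groups were of the same age.

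Collagens and laminins are secreted proteins that assemble outside the cell. Fibrillar collagens, mainly types I and III in the heart, form the fibres between muscle layers and are made largely by fibroblasts, while type IV collagen and the laminins form the basement membrane that coats cardiomyocytes and vessels. Metalloproteinases and ADAMTS proteases cut matrix proteins, Timp proteins inhibit them, and lysyl oxidases cross-link collagen and elastin. The comparison of mNrf2-TG with NTG asks which of these transcripts differ in hearts whose cardiomyocytes carry extra Nrf2.

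Nfe2l2, the gene of Nrf2, was read first as a check of the labels. Its normalized counts, which are counts divided by the scaling factor of the library, were 1402, 1253, 752 and 1050 in NTG and 12030, 10750 and 11650 in mNrf2-TG, a 10.3-fold difference with no overlap. Between 6534684 and 8405857 reads were counted per library. The 94 genes took 0.412 to 0.508% of them, and the highest share was in NTG 3, where 52 of the 94 genes had their highest NTG value. NTG 3 also had the highest summed level of the 9 mural cell markers, 2323 CPM (counts scaled to the library total) against 1201 to 1260 in the other NTG libraries, and the part of this in the results was not tested. Most of that gap was in Acta2, the smooth muscle actin, with 1056 CPM against 136 to 251, and without Acta2 the sum was 1267 CPM against 951 to 1115. The mural markers Cnn1 and Kcnj8 were lowest in NTG 3 among the NTG libraries. Outside this list, the summed skeletal muscle markers were also highest in NTG 3, 3565 CPM against 1990 to 2115. Most of that was in Acta1, with 1218 CPM against 208 to 280. The cardiomyocyte markers were abundant in every library. Of the 4 atrial markers, 2 were in the table, and both were low in these lysates, which the labels call whole heart. Myl7 reached at most 4.13 normalized counts, and Myl4 had 23, 15.3, 26.8 and 20.9 in NTG and 23.7, 39.4 and 59 in mNrf2-TG (adjusted p = 0.069).

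Of the 94 genes, 22 differed between the groups at an adjusted p under 0.05 in edgeR's quasi-likelihood test with Benjamini-Hochberg adjustment over all genes tested. This share of 23.4% stood beside 17.2% of all 14637 genes tested. In mNrf2-TG 16 of the 94 were higher, where 8.48% of all genes were, and 6 were lower, where 8.73% of all genes were. The same shares of all genes stand beside the counts given below for each family and role. The median Log2FC was 0.26 for the 94 genes and 0.00 for all genes, and 62 of the 94 had a positive Log2FC. The normalized counts of the groups did not overlap for 33 of the 94 genes, 24 of them higher and 9 lower in mNrf2-TG, and for 29.7% of all genes tested. All 94 genes passed the filter of a summed count above 1, but 23 of them had a mean count under 10, and none of these 23 was among the 22. In RNA from whole tissue, a difference in the number of cells of a type and a difference in RNA per cell cannot be told apart. Without 1 library the number of genes called ranged from 11 (without mNrf2-TG 19) to 28 (without NTG 3), being 12 without mNrf2-TG 18, and 8 genes were called in all 7 such fits and under every other setting tried: Col1a2, Col5a1, Col4a5, Col15a1, Lama4, Timp2, Adamts9 and Mmp15.

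**Figure D1:**
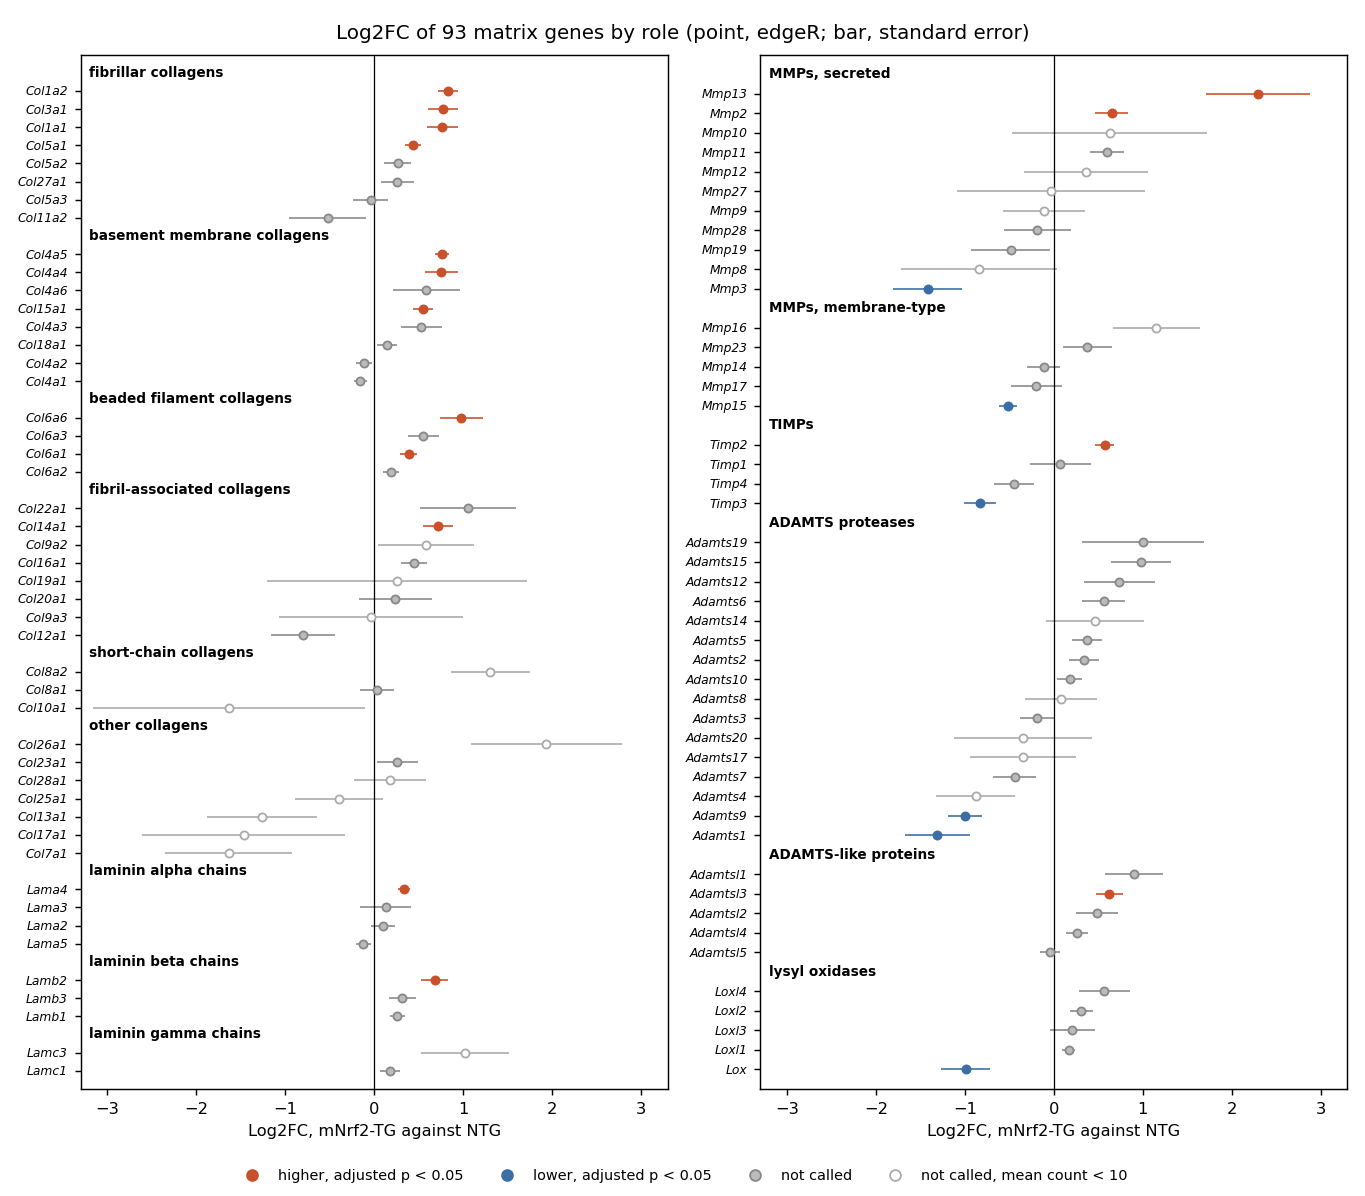
Log2FC of mNrf2-TG against NTG (horizontal axis) for 93 of the 94 genes, grouped by role and sorted within each group. Points are edgeR estimates and bars their standard errors. The 10 collagens and 2 laminins that were called all lie to the right of 0, while called proteases and inhibitors lie on both sides.

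RefSeq (GRCm38.p6) gave promoter windows for 63 of the 94 genes. The 250 bases before the RefSeq start are shown for 5 of them: Col1a2 and Col3a1, interstitial collagens that rose together; Col4a5, the gene with the smallest adjusted p; and Timp2 and Timp3, inhibitors that differed in opposite directions. Capitals mark the TATA box (TATAAA), the CCAAT box (CCAAT), the GC box (GGGCGG), the core of the antioxidant response element to which Nrf2 binds (TGACNNNGC) and the AP-1 site (TGANTCA), each searched on both strands. The sequences run 5′ to 3′ on the strand of the gene.
Col1a2, chr6:4505368-4505617, plus strand: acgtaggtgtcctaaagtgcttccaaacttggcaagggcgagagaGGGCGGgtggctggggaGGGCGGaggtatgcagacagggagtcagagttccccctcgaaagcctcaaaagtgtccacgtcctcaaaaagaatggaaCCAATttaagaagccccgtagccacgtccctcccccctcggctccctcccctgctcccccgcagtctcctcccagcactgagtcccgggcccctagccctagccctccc
Col3a1, chr1:45311288-45311537, plus strand: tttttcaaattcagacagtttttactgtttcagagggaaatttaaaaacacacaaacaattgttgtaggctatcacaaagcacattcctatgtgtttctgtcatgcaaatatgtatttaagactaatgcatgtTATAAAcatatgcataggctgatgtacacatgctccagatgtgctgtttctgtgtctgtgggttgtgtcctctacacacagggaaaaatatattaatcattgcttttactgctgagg
Col4a5, chrX:141475169-141475418, plus strand: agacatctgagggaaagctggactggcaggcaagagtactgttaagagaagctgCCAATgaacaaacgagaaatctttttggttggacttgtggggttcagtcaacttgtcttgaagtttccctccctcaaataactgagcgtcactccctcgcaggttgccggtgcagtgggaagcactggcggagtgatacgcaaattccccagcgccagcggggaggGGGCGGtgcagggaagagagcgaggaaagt
Timp2, chr11:118355412-118355661, minus strand: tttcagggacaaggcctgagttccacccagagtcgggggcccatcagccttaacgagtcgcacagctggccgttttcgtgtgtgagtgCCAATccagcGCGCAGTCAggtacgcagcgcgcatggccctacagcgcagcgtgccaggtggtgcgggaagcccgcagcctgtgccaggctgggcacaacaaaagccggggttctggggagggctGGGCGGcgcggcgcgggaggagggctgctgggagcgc
Timp3, chr10:86300162-86300411, plus strand: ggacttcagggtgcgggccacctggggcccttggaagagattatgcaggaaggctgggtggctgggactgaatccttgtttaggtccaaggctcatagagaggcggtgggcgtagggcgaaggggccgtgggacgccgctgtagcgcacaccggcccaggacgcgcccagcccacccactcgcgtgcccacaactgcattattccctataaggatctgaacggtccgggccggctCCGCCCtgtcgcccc
The start of the gene in GENCODE M21 is the same for Col3a1, and lies upstream by 34 bases for Col4a5, 40 for Timp3, 329 for Timp2 and 804 for Col1a2. By GENCODE the Timp2 and Col1a2 windows thus lie wholly inside the gene, and their matches are placed relative to the RefSeq start alone. The antioxidant response element core matched in the Timp2 window, 152 bases before the RefSeq start and downstream of the GENCODE start, and in none of the other 4 windows shown. Over all windows it matched in 10.2% of 32851 RefSeq windows and in 13.2% of the 68 windows of the 94 genes. It was present for 1 of the 12 genes with a window that were higher in mNrf2-TG (Timp2), for 1 of the 5 that were lower (Mmp15), and for 7 of the 46 that were not called. The TATA box matched in 12.4% of all windows and 14.7% of the 68, the CCAAT box in 33.8% and 25.0%, the GC box in 32.7% and 57.4%, and the AP-1 site in 6.75% and 7.35%. These matches are a description of the letters in the windows.

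Of the 8 fibrillar collagens in the table, 4 rose in mNrf2-TG hearts and none fell: Col1a1 and Col1a2, the chains of type I collagen, Col3a1, the chain of type III, and Col5a1, a chain of the type V collagen that starts fibrils. Col1a2 had 504.5, 400.5, 572 and 507 normalized counts in NTG and 805, 923 and 911 in mNrf2-TG. The groups did not overlap, and Col1a2 was 1.77-fold higher in mNrf2-TG (Log2FC 0.83 ± 0.11 (SE), adjusted p = 0.00153). Col1a1 had 318, 309, 457 and 503 in NTG and 620, 632.5 and 772 in mNrf2-TG, so that NTG 3 and 4 were nearer to the mNrf2-TG values than NTG 1 and 2 (Log2FC 0.77 ± 0.17, adjusted p = 0.0141). Col3a1 had 950.5, 795, 971 and 1371 in NTG and 1510, 1656 and 2062 in mNrf2-TG, again without overlap (Log2FC 0.77 ± 0.17, adjusted p = 0.0137). Col5a1 differed by less, with 331, 302, 363 and 325 against 406, 460 and 474 (Log2FC 0.44 ± 0.09, adjusted p = 0.0101). Its partner Col5a2 had 202, 291, 339 and 304 in NTG and 325, 326 and 373 in mNrf2-TG, with the groups overlapping (adjusted p = 0.258). Without mNrf2-TG 19 the calls of Col1a1 (0.0543) and Col3a1 (0.0537) were lost on the adjusted p. The remaining fibrillar collagens, Col5a3, Col11a2 and Col27a1, were not called.

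On the scale of counts per kilobase of merged exons, the ratio of Col1a1 to Col1a2 was 1.51 ± 0.28 (SD, n = 4) in NTG and 1.45 ± 0.15 (SD, n = 3) in mNrf2-TG, and the ratio of Col3a1 to Col1a1 was 1.74 ± 0.24 and 1.72 ± 0.08, with the libraries overlapping in both. The size of such a ratio depends on the length given to a gene: with the longest transcript, Col1a1 to Col1a2 was 0.72 in NTG, because the merged exons of Col1a2 span 12426 bases and its longest transcript 5348.

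Of the 6 type IV collagen chains of the basement membrane 2 rose, Col4a4 and Col4a5, chains of its tissue-restricted networks. Col4a1 and Col4a2, which make the type IV network found in most tissues, were not called, and the difference between the chains was not tested. Col4a1 had 3593, 3828, 4265 and 4005 normalized counts in NTG and 3386, 3457 and 3732 in mNrf2-TG, and the groups overlapped (Log2FC -0.15 ± 0.08, adjusted p = 0.189). Col4a2, whose start lies 21 bases from that of Col4a1 on the opposite strand of chromosome 8, had 2579, 2469, 3140 and 2938 and 2505, 2569 and 2646 (Log2FC -0.11 ± 0.09, adjusted p = 0.426). The ratio of their levels per length was 1.26 ± 0.08 in NTG and 1.21 ± 0.03 in mNrf2-TG. Col4a5, on chromosome X, had 387, 428, 409 and 368 in NTG and 727, 643 and 656 in mNrf2-TG, a 1.7-fold increase with a wide gap between the groups and the smallest adjusted p of the 94 genes (Log2FC 0.76 ± 0.08, adjusted p = 0.000406). Col4a4 had a much lower count, with 42.5, 36.9, 54.6 and 54.8 in NTG and 68.9, 75.9 and 93.5 in mNrf2-TG (Log2FC 0.75 ± 0.19, adjusted p = 0.0213). The Col4a4 call was lost without NTG 1 (0.0559), NTG 2 (0.0529), mNrf2-TG 18 (0.0523) or mNrf2-TG 19 (0.0838). Col4a3, which shares its start region with Col4a4, was not called, with the NTG libraries between 33.3 and 59.8 and the mNrf2-TG libraries between 52.2 and 80.8 (adjusted p = 0.146), nor was Col4a6 (adjusted p = 0.31).

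Col15a1 and Col18a1 encode basement membrane collagens whose ends are released as anti-angiogenic fragments. Col15a1 had 726, 738, 915 and 734 normalized counts in NTG and 1197, 970 and 1244 in mNrf2-TG, without overlap, although NTG 3 came close to mNrf2-TG 18 (Log2FC 0.55 ± 0.11, adjusted p = 0.00959). Col18a1 was nearly the same in all 7 libraries, between 86.6 and 105 (Log2FC 0.15 ± 0.11, adjusted p = 0.411).

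Type VI collagen forms beaded filaments that link the basement membrane to the interstitium. All 4 of its genes in the table had a positive Log2FC, and 2 were called. Col6a1 had 356, 347, 353 and 394 normalized counts in NTG and 415, 469 and 538 in mNrf2-TG (Log2FC 0.39 ± 0.10, adjusted p = 0.024), and Col6a6, which encodes an alternative to the long chain Col6a3, had 29.9, 55.8, 36.1 and 35.8 and 73.2, 100.5 and 62.6 (Log2FC 0.98 ± 0.24, adjusted p = 0.0202). Neither overlapped between the groups. Col6a2 overlapped, with 694, 624, 689 and 718 in NTG and 698, 770 and 865 in mNrf2-TG (adjusted p = 0.162). The ratio of Col6a1 to Col6a2 per length was 1.01 ± 0.04 in NTG and 1.16 ± 0.03 in mNrf2-TG, and this ratio did not overlap between the groups. Col6a3 had 279, 360, 417 and 227 in NTG and 448, 517 and 449 in mNrf2-TG, which did not overlap either, but it missed the threshold (Log2FC 0.55 ± 0.18, adjusted p = 0.0559), and passed it without NTG 3 (0.00766) and with DESeq2 (0.0223). The Col6a1 call was lost without NTG 1 (0.0601), NTG 2 (0.0633), mNrf2-TG 18 (0.0638) or mNrf2-TG 19 (0.0839), and the Col6a6 call without NTG 1 (0.0537), mNrf2-TG 17 (0.0527) or mNrf2-TG 18 (0.0848).

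The fibril-associated collagens, which sit on the surface of collagen fibres, were mostly low, and 1 of 8 was called. Col14a1 had 77, 61.2, 87.7 and 63.7 normalized counts in NTG and 94.7, 126 and 135 in mNrf2-TG (Log2FC 0.72 ± 0.17, adjusted p = 0.0181). NTG 3 lay close below mNrf2-TG 17, and the call was lost without NTG 2 (0.0512), mNrf2-TG 18 (0.0639) or mNrf2-TG 19 (0.0714). Col16a1 had 52.9, 49.5, 62.9 and 49.8 in NTG and 67.8, 79.8 and 72.6 in mNrf2-TG, without overlap, and missed the threshold (Log2FC 0.45 ± 0.15, adjusted p = 0.0609), passing it without NTG 3 (0.0297). None of the 3 short-chain network collagens (Col8a1, Col8a2 and Col10a1) and none of the 7 transmembrane and other collagens was called. Among them Col8a1 had 244, 258, 429 and 243 in NTG and 323, 272 and 303 in mNrf2-TG, while Col8a2 (3.22 ± 0.923 in NTG and 8.36 ± 3.02 in mNrf2-TG), Col13a1 (8.82 ± 1.14 in NTG and 3.67 ± 3.31 in mNrf2-TG) and Col23a1 (23.5 ± 3.75 in NTG and 28.1 ± 4.75 in mNrf2-TG; mean ± SD, n = 4 and 3) were low.

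**Figure D2:**
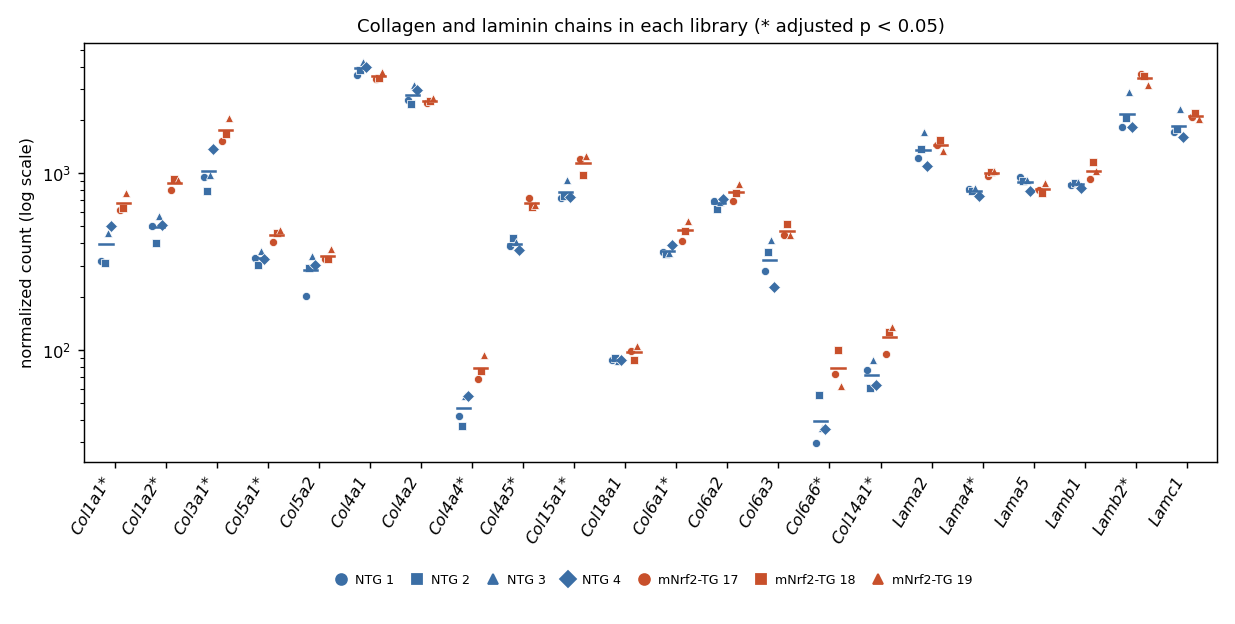
Normalized counts on a log scale (vertical axis) of 16 collagen and 6 laminin genes in each of the 4 NTG (blue) and 3 mNrf2-TG (orange) libraries, with a horizontal line at each group mean. Col1a2, Col4a5, Lama4 and Lamb2 show no overlap between the groups, while Col4a1, Col4a2, Lama2 and Lamc1 overlap.

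Each laminin is a trimer of an α, a β and a γ chain. Of 10 laminin genes 2 rose, 1 among the α chains and 1 among the β chains, and 9 had a positive Log2FC. Lamb2, the β chain of muscle and vascular basement membranes, had 1814, 2057, 2894 and 1830 normalized counts in NTG and 3638, 3555 and 3141 in mNrf2-TG. It was 1.6-fold higher in mNrf2-TG, where every library lay above NTG 3, the highest NTG library (Log2FC 0.68 ± 0.15, adjusted p = 0.014). The call was lost without mNrf2-TG 17 (0.057). Lamb1, the more widely made β chain, had 861, 878, 893 and 820 and 922, 1149 and 1030, without overlap, and missed the threshold (Log2FC 0.26 ± 0.08, adjusted p = 0.058), passing it without mNrf2-TG 17 (0.0384) and with DESeq2 (0.0469). The ratio of Lamb2 to Lamb1 per length was 4.04 ± 0.84 in NTG and 5.48 ± 0.82 in mNrf2-TG, with the libraries overlapping.

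Lama4, the α chain of endothelial basement membranes, had 816, 787.5, 822 and 738 normalized counts in NTG and 962, 1008 and 1026 in mNrf2-TG. The difference was small and the spread within each group was smaller (Log2FC 0.34 ± 0.07, adjusted p = 0.00971). Lama2, the α chain of the muscle fibre surface, had 1215, 1363, 1707 and 1096 in NTG and 1440, 1544 and 1330 in mNrf2-TG, and the mNrf2-TG values fell inside the NTG range (Log2FC 0.10 ± 0.13, adjusted p = 0.673). Lama5 had 954, 907, 911.5 and 791.5 and 797, 772 and 882 (Log2FC -0.12 ± 0.08, adjusted p = 0.345). Lamc1, the γ chain of most laminins, had 1710, 1781, 2315 and 1598 and 2068, 2195 and 2029, with NTG 3 above all other libraries (Log2FC 0.18 ± 0.12, adjusted p = 0.32), and passed the threshold without NTG 3 (0.0151).

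Of the 16 secreted and membrane-bound metalloproteinases 2 rose and 2 fell, beside 8.48% of all genes tested that rose and 8.73% that fell. Mmp2, a gelatinase made mainly by fibroblasts, had 465.5, 403, 738 and 544 normalized counts in NTG and 793, 995 and 742 in mNrf2-TG (Log2FC 0.65 ± 0.18, adjusted p = 0.0377). NTG 3 and mNrf2-TG 19 were almost equal, and the call was kept without NTG 3 (0.0019) but lost without any other single library, NTG 1, 2 or 4 or mNrf2-TG 17, 18 or 19 (adjusted p between 0.0527 and 0.135). Mmp15, a membrane-type metalloproteinase, had 1018, 945, 919 and 998 in NTG and 584, 668 and 785 in mNrf2-TG, a 1.43-fold decrease with NTG libraries close together and well above all mNrf2-TG libraries (Log2FC -0.51 ± 0.10, adjusted p = 0.0081). Mmp3, a stromelysin, was low in all libraries, with 17.2, 27, 49.5 and 39.8 in NTG and 8.61, 16.8 and 11.8 in mNrf2-TG. The Mmp3 groups were separated by less than 1 normalized count at their nearest libraries, NTG 1 and mNrf2-TG 18 (Log2FC -1.42 ± 0.39, adjusted p = 0.034), and the call was lost without NTG 2 or 4 or mNrf2-TG 17, 18 or 19 (adjusted p between 0.0524 and 0.117) and with limma-voom (0.0588).

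Mmp13, a collagenase, was named after its values were seen. It had 4, 2, 5 and 4 counts in NTG and 5, 32 and 22 counts in mNrf2-TG, so that mNrf2-TG 17 was level with the highest NTG library before scaling. Its call (Log2FC 2.29 ± 0.58, adjusted p = 0.0247) rested on mNrf2-TG 18 and 19, and was lost without NTG 1, 2 or 4 or mNrf2-TG 18 or 19 (adjusted p between 0.0504 and 0.1) and with limma-voom (0.0703). The activator of pro-Mmp2 at the cell surface, Mmp14, had 114, 99, 143 and 117.5 normalized counts in NTG and 78.5, 127 and 121 in mNrf2-TG (Log2FC -0.11 ± 0.18, adjusted p = 0.712). Mmp9, a gelatinase of white blood cells, had at most 8.25 in any library (adjusted p = 0.896), a depth at which a moderate difference was not detectable.

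Of the 4 Timp genes 1 fell, 1 rose and 2 were not called. Timp3, whose protein is bound to the matrix and inhibits ADAMTS proteases as well as metalloproteinases, had the highest level per length of the 94 genes in NTG hearts. Its normalized counts were 5851, 6866, 7350 and 3918 in NTG and 3365, 3603 and 3175 in mNrf2-TG. NTG 4 lay close to the mNrf2-TG libraries and the other NTG libraries far above them, and the groups did not overlap (1.77-fold lower in mNrf2-TG, Log2FC -0.83 ± 0.18, adjusted p = 0.0129). The call was lost without mNrf2-TG 17 (0.0518) or mNrf2-TG 19 (0.0523). Timp3 lies within the gene Syn3, on the opposite strand, and 1733 bases of its exons overlap exons of Syn3. Syn3 had only 10 to 33 counts per library and did not pass the test (Log2FC -0.05, adjusted p = 0.935).

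Timp2, a soluble inhibitor that also takes part in the activation of pro-Mmp2, went the other way. It had 948, 827, 1140 and 911 normalized counts in NTG and 1335, 1543 and 1391 in mNrf2-TG, a 1.49-fold increase without overlap (Log2FC 0.57 ± 0.11, adjusted p = 0.00689). The ratio of Timp3 to Timp2 per length, a pair chosen after the values were seen, was 3.02 ± 0.78 (SD, n = 4) in NTG and 1.14 ± 0.06 (SD, n = 3) in mNrf2-TG, with 2.06 as the lowest NTG value and 1.21 as the highest mNrf2-TG value. Timp4, an inhibitor abundant in the heart, had 382, 382.5, 616 and 393 in NTG and 242, 290 and 438 in mNrf2-TG, and the groups overlapped (Log2FC -0.45 ± 0.22, adjusted p = 0.195). Timp1, the inducible inhibitor, was low, with 11.5, 17.1, 28.9 and 17.9 and 12.9, 24.6 and 21.8 (adjusted p = 0.91).

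Of the 16 ADAMTS proteases 2 fell and none rose, beside 8.73% of all genes tested that fell and 8.48% that rose. Their median Log2FC was 0.13, and 9 of the 16 had a positive Log2FC. Of the 5 ADAMTS-like proteins, which lack the protease domain, 1 rose. Adamts9, which cuts versican, had 299, 355.5, 223 and 378 normalized counts in NTG and 143, 135 and 193 in mNrf2-TG. It was 1.99-fold lower in mNrf2-TG, and NTG 3, the lowest NTG library, was still above mNrf2-TG 19 (Log2FC -0.996 ± 0.19, adjusted p = 0.0078). Exons of 2 genes on the opposite strand overlap 1381 and 424 bases of Adamts9. Strand use in the counting was not given in the sources used here, and neither gene was in the table.

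Adamts1, another versican-cutting protease, had 599, 519, 1571 and 650 normalized counts in NTG and 331, 420 and 258 in mNrf2-TG (Log2FC -1.31 ± 0.37, adjusted p = 0.0359). NTG 3 stood far above the other NTG libraries, and without it Adamts1 was still lower in mNrf2-TG (Log2FC -0.81, adjusted p = 0.00528). The call was lost without mNrf2-TG 17 (0.108), 18 (0.0622) or 19 (0.121). Adamts2, which removes the amino-terminal propeptide of fibrillar procollagens, had 96.5, 105, 154 and 120.5 in NTG and 129, 174 and 147 in mNrf2-TG and overlapped (adjusted p = 0.199), passing the threshold without NTG 3 (0.0389). The aggrecan-cutting Adamts5 had 167, 232, 256 and 208 and 214, 324 and 299 (adjusted p = 0.157), and Adamts4 had under 10 in every library (adjusted p = 0.204). Adamtsl3 had 58.6, 54, 79.4 and 72.7 in NTG and 94.7, 110 and 101 in mNrf2-TG, without overlap (Log2FC 0.62 ± 0.16, adjusted p = 0.0225), but the call was lost without NTG 1 or 2 or mNrf2-TG 17, 18 or 19 (adjusted p between 0.0513 and 0.0816). Adamtsl4 (398.5 ± 65.6 in NTG and 478 ± 34.5 in mNrf2-TG) and Adamtsl5 (501 ± 59.6 in NTG and 485 ± 53.4 in mNrf2-TG; mean ± SD, n = 4 and 3) were the highest of the ADAMTS-like genes per length and were not called.

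Among the 5 lysyl oxidases, Lox, the founding member of the family, fell, and the other 4 had a positive Log2FC without passing the test. Lox had 40.2, 29.7, 56.7 and 54.8 normalized counts in NTG and 21.5, 27.6 and 19.1 in mNrf2-TG, and NTG 2 was the nearest to the mNrf2-TG libraries (1.99-fold lower, Log2FC -0.99 ± 0.27, adjusted p = 0.034). The call was kept without NTG 2 (0.0199) and lost without any other single library, NTG 1, 3 or 4 or mNrf2-TG 17, 18 or 19 (adjusted p between 0.0518 and 0.113), and with limma-voom (0.0543). Loxl1, which binds elastin, was the most abundant of the family per length, and had 319.5, 311, 333 and 321 in NTG and 349, 356 and 378.5 in mNrf2-TG. These did not overlap, yet the difference missed the threshold (Log2FC 0.17 ± 0.07, adjusted p = 0.143). Loxl2 had 194, 186, 267 and 204 and 253, 267 and 271 (Log2FC 0.31 ± 0.13, adjusted p = 0.118), and passed without NTG 3 (0.00845).

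**Figure D3:**
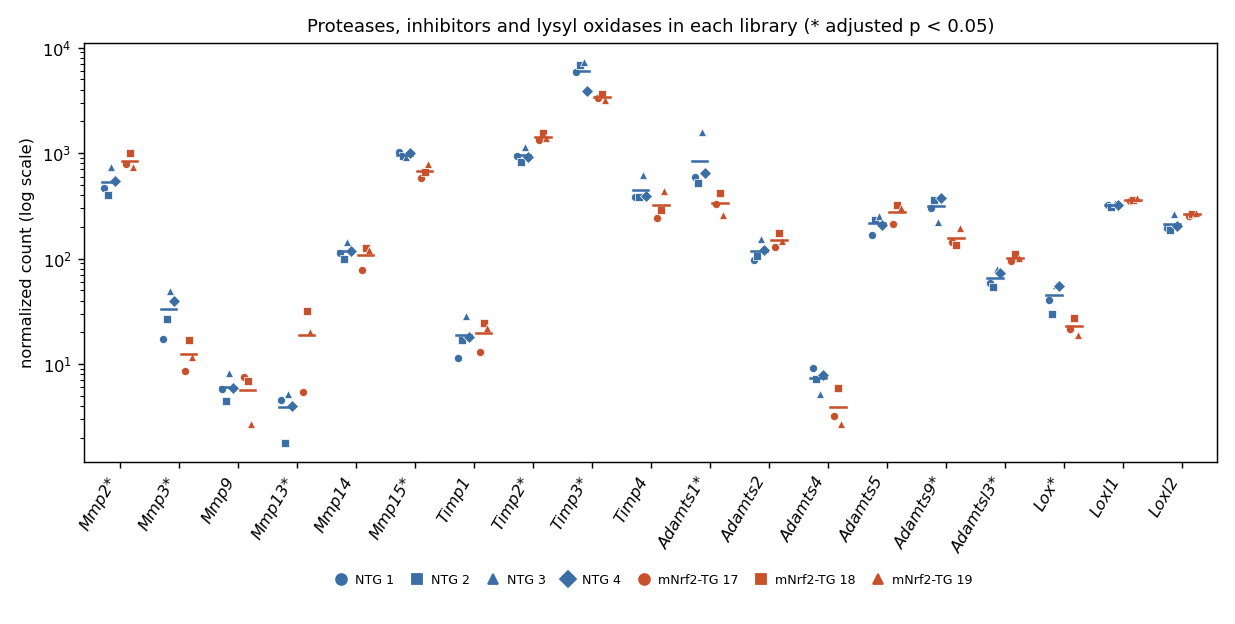
Normalized counts on a log scale (vertical axis) of 19 protease, inhibitor and lysyl oxidase genes in each of the 4 NTG (blue) and 3 mNrf2-TG (orange) libraries, with a horizontal line at each group mean. Timp2 is higher and Timp3 lower in every mNrf2-TG library than in any NTG library, and NTG 3 stands apart for Adamts1 and Timp4.

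Levels of different genes can be set beside each other only per length. In CPM per kilobase of merged exons (mean ± SD, n = 4 and 3), Timp3 led in NTG hearts (97.8 ± 24.8 in NTG and 55.2 ± 3.5 in mNrf2-TG). It was followed by Col4a1 (69.8 ± 5.05 in NTG and 62.8 ± 3.26 in mNrf2-TG), Col4a2 (55.8 ± 6.26 in NTG and 51.7 ± 1.42 in mNrf2-TG), Lamb2 (46.9 ± 11.1 in NTG and 75.2 ± 5.82 in mNrf2-TG) and Timp2 (32.6 ± 4.52 in NTG and 48.5 ± 3.67 in mNrf2-TG). In mNrf2-TG hearts Lamb2 led and Timp3 was the third. In NTG the libraries of Timp3 and Col4a1 overlapped, and in mNrf2-TG every library had more Lamb2 than Col4a1. These 5 genes of the basement membrane and of inhibitors ranked above the interstitial collagens in both groups, with Col3a1 at 13.8 ± 3.33 in NTG and 23.6 ± 3.88 in mNrf2-TG. Mmp15 (23.9 ± 1.13 in NTG and 16.7 ± 2.48 in mNrf2-TG) had the highest mean of the metalloproteinases in NTG hearts, where it overlapped with Mmp2, and Mmp2 (21.2 ± 5.74 in NTG and 33.2 ± 5.28 in mNrf2-TG) the highest in mNrf2-TG hearts, where the libraries of the pair did not overlap. Adamts1 ranked 9 of 94 in NTG hearts and 23 in mNrf2-TG hearts.

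**Figure D4:**
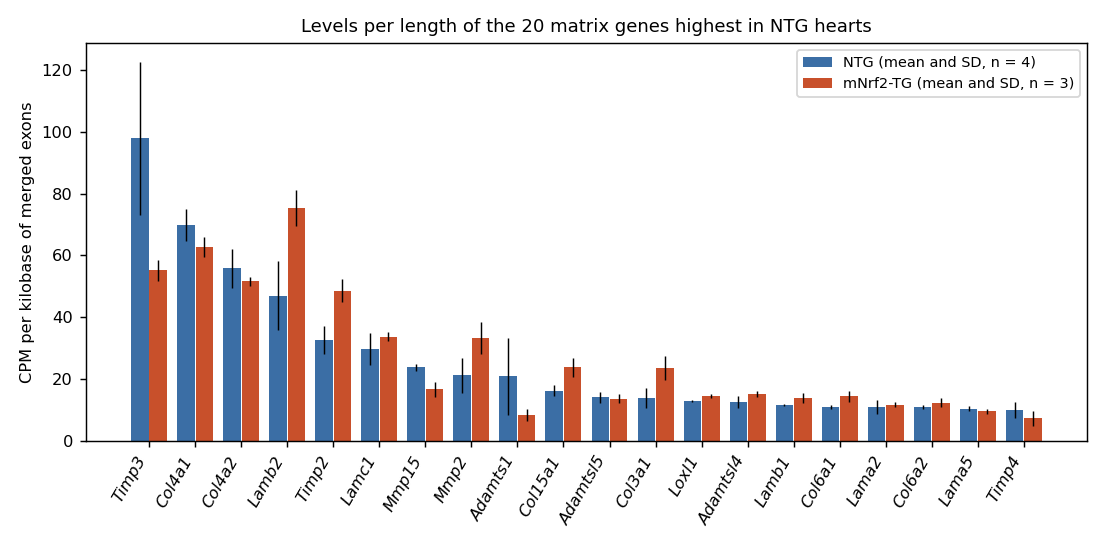
Levels in CPM per kilobase of merged exons (vertical axis) of the 20 genes highest in NTG hearts, as bars of the group mean with the SD over 4 NTG (blue) and 3 mNrf2-TG (orange) libraries. Timp3 is the tallest bar in NTG and Lamb2 in mNrf2-TG.

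Genes that work with these proteins were read from 5 further lists, beside 8.48% of all genes tested that rose and 8.73% that fell. Of the 22 genes of collagen synthesis and processing 3 rose and 2 fell. Plod2, a lysyl hydroxylase that prepares collagen for cross-linking, fell from 507, 490.5, 452 and 489 normalized counts in NTG to 317, 322 and 302 in mNrf2-TG, without overlap (Log2FC -0.63 ± 0.08, adjusted p = 0.000764). Pcolce, which enhances the removal of the carboxy-terminal propeptide of procollagens, rose from 270, 274, 344 and 338.5 to 436, 546 and 498 (Log2FC 0.69 ± 0.12, adjusted p = 0.00465). Tll2, a protease of the family that removes this propeptide, rose from a low level (5.35 ± 0.757 in NTG and 22.3 ± 8.68 in mNrf2-TG; Log2FC 2.04 ± 0.37, adjusted p = 0.00657). The other 2 were Plod1, lower (Log2FC -0.43 ± 0.10, adjusted p = 0.0213), and Colgalt2, higher (Log2FC 0.51 ± 0.15, adjusted p = 0.0443).

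Of the 27 non-collagen genes of the interstitial matrix tested, 4 rose (Lum, Fbn2, Prelp and Thbs3) and 3 fell (Thbs1, Ogn and Fbln1). Thbs1, a matricellular protein of platelets and injured tissue, had 683, 735, 669 and 419 normalized counts in NTG and 239, 113 and 114 in mNrf2-TG, a 4.05-fold decrease (Log2FC -2.02 ± 0.28, adjusted p = 0.00163). The proteoglycans Lum and Ogn, which bind collagen fibrils, moved apart. Lum had 717, 554, 1109 and 823 in NTG and 1777, 1682 and 1512 in mNrf2-TG (Log2FC 1.05 ± 0.19, adjusted p = 0.00562), and Ogn had 1991, 1857, 1775 and 1829 and 1332, 1397 and 1466 (Log2FC -0.41 ± 0.07, adjusted p = 0.00452). Neither overlapped between the groups.

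Among 7 other basement membrane components, Smoc2 rose (Log2FC 0.51 ± 0.12, adjusted p = 0.0187) and Dag1, the gene of the laminin receptor dystroglycan, fell (Log2FC -0.36 ± 0.08, adjusted p = 0.0161). Hspg2, Nid1, Nid2, Agrn and Sparc were not called, with the smallest p among them for Sparc (Log2FC 0.10 ± 0.09, adjusted p = 0.468). Of 10 collagen and laminin receptors, Itga7, the laminin receptor chain of striated muscle, rose from 1249, 1120, 1351 and 1152 normalized counts in NTG to 1690, 1694 and 1717 in mNrf2-TG (Log2FC 0.48 ± 0.08, adjusted p = 0.00358). Ddr1 rose (Log2FC 0.75 ± 0.19, adjusted p = 0.0241) and Itga6 fell (Log2FC -0.51 ± 0.13, adjusted p = 0.028). Of 15 other matrix proteases and inhibitors 4 rose, among them Ctsk, Fap and Adam19, and 2 fell (Bsg and Ctsl). Bsg, an inducer of metalloproteinases, had 8964, 9118, 9682 and 9713 in NTG and 6954, 7546 and 6799 in mNrf2-TG (Log2FC -0.40 ± 0.07, adjusted p = 0.00397), and Ctsl (Log2FC -0.28 ± 0.07, adjusted p = 0.0223) and Ctsk (Log2FC 1.02 ± 0.27, adjusted p = 0.0269) encode cathepsins. Over the 5 lists 23 of 81 genes were called, where 17.2% of all genes tested were. When a library was left out, between 11 (without NTG 1 or mNrf2-TG 17) and 36 (without NTG 3) were called. The number was 12 without NTG 2 or mNrf2-TG 18 and 13 without mNrf2-TG 19. The calls over all genes moved as well, from 2519 to 1373 without mNrf2-TG 17 and to 2950 without NTG 3.

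Markers of the cell types that make or carry this matrix were read as well, again beside 8.48% of all genes that rose and 8.73% that fell. Of 8 fibroblast markers 3 rose (Lum, Tcf21 and Dpt) and none fell, and their summed level was 2492 to 2740 CPM in NTG and 2825 to 3246 CPM in mNrf2-TG. Of 6 activated fibroblast markers 2 rose (Cilp and Fap), with sums of 62.3 to 95.9 and 87.3 to 106, while Postn did not pass (adjusted p = 0.319) and Cthrc1 and Cilp2 were near 0. Of 7 macrophage markers 4 rose (Csf1r, C1qa, Adgre1 and C1qb), with sums of 174 to 280 and 281 to 381. Of 8 cardiomyocyte markers 4 fell (Tnni3, Myl2, Pln and Myl3), with sums of 84930 to 89000 and 72010 to 74290. Of 8 endothelial markers 3 fell (Pecam1, Cdh5 and Esam) and 1 rose (Kdr), with sums of 979.8 to 1064 and 912 to 939. Of 9 mural cell markers 1 fell (Rgs5), with sums of 1201 to 2323 and 1706 to 2196. Of the 9 markers 7 had a negative Log2FC. Acta2 had a positive one and was not called (136 to 1056 CPM in NTG and 727 to 1243 in mNrf2-TG, adjusted p = 0.163), and without Acta2 the sums were 951 to 1267 and 895 to 1097. The fibroblast, macrophage, cardiomyocyte and endothelial sums thus did not overlap between the groups. Among single genes, 29.7% of all genes tested did not overlap. The part of these sums in the differences of the matrix genes was not tested. Each gene was then left out of its sum, a step added after the values were seen. The cardiomyocyte sums stayed apart without any 1 gene, while the groups overlapped for the fibroblast sum without Lum (2416 to 2593 and 2589 to 3045), for the endothelial sum without Pecam1 (728 to 811.9 and 730.2 to 745) and for the macrophage sum without Adgre1, C1qa, C1qb or Csf1r. Of 4 mesothelial markers Wt1 fell, with sums of 9.32 to 17.9 CPM in NTG and 5.72 to 6.94 CPM in mNrf2-TG. The other 3 had a positive Log2FC and a mean count under 10, and none of them was called. Of 7 skeletal muscle markers 3 fell (Myh4, Ckm and Myh1), with sums of 1990 to 3565 and 1683 to 1896. Of these 7 markers 2 had a positive Log2FC, and 3 had a mean count under 10. Neither the mesothelial nor the skeletal muscle sum overlapped between the groups. The groups overlapped for the mesothelial sum without Wt1 (0 to 2.33 and 0.965 to 1.31) and for the skeletal muscle sum without Ckm (319.5 to 1374 and 353.7 to 424.8). Of 3 cartilage and tendon markers tested Scx rose, and no Schwann cell, adipocyte or atrial marker was called. Dcn, Lum, Mfap5, Postn and Fap stand in 2 of these and the former lists.

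How far the calls of single genes depended on 1 library was read by leaving out each in turn. Of the 22 called genes 8 were called in all 7 fits and 14 lost the call in at least 1. Leaving out NTG 3 kept 21 of the 22 calls, with only Lox lost, and added 7, whereas leaving out mNrf2-TG 19 kept 10.

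**Figure D5:**
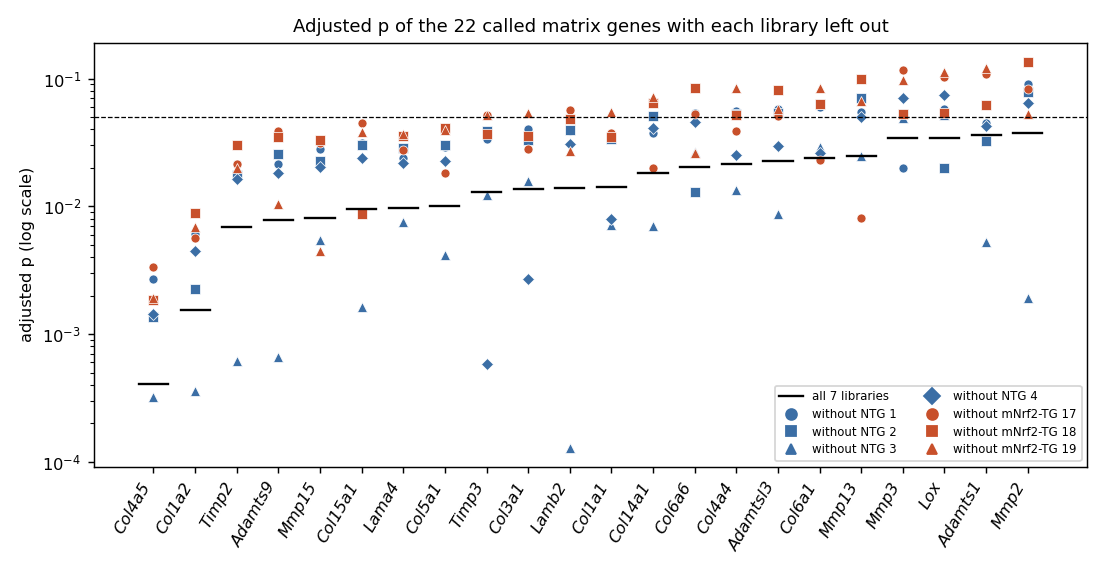
Adjusted p on a log scale (vertical axis) of the 22 called genes, with all 7 libraries (black line) and with each NTG (blue) or mNrf2-TG (orange) library left out. The dashed line is the threshold of 0.05. The 8 genes on the left lie under it in every fit, and leaving out NTG 3 gave a lower adjusted p than all 7 libraries did for Col4a5, Col1a2, Timp2 and Lamb2.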

How the data were processed

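RNA from 7 hearts was sequenced from stranded, poly(A)-selected libraries. By the submitters' processing notes and the methods, the authors aligned the reads with Novoalign 2.08.01, and the deposited table holds counts of reads per gene that were not normalized. Both hg19 and mm10 (GRCm38) are named in the methods as the reference. The counting program and its use of strand were not given in the sources used here. The authors also deposited DESeq2 1.32.0 rlog values and a comparison with mean counts, fold changes and p-values, and neither was used. Symbols came from the comparison table by Entrez identifier. Of 14665 entries 24 repeated a gene and were left out.

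Groups were taken from the genotype labels. The 14637 genes with a summed count above 1 were compared by the quasi-likelihood test of edgeR 4.0.16 (R 4.3.3) on TMM-scaled counts with the group as the only term. Benjamini-Hochberg adjustment was made over all of these genes. The standard error of the Log2FC (SE) was obtained from the F statistic. Normalized counts are counts divided by the TMM-scaled library total and multiplied by the mean total. CPM uses the same scaled totals, and levels per length divide it by the merged exons in GENCODE M21. With 1 library per mouse, p-values measure the spread between mice. Between 6534684 and 8405857 counts per library leave genes with a few counts without information on moderate differences. The fit was tested on simulated counts of 14531 genes, of which 200 carried a Log2FC of 1.5 in either direction: 95.5% of these were called, and 6.37% of the calls were false. The 200 genes were drawn only from those above a minimum mean count in NTG. Among the called members only Mmp13 had a larger Log2FC (2.29). The share of 95.5% thus does not apply to smaller differences or to genes with low counts. The simulated counts were drawn for each gene separately from the fitted dispersions, with no shift of a whole library. The share of 6.37% was thus not measured on the calls in these data.

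The members, the lists and the tests were chosen with earlier results of these data known. Named were the members with an adjusted p under 0.05 and no library of the higher group under 10 counts, the 2 members with the highest level per length in each role, a fixed list of well-known members, and the 3 genes with the smallest p in each further list. Mmp13, Col4a3, Col4a6, Acta1, Acta2, Cnn1, Kcnj8, Myl4, and the other called genes of the further lists and of the marker lists, were named after their values were seen, and a few uncalled collagens were named to complete a role. A few genes covered by the rule are counted but not reported here by name. Alternatives were DESeq2 1.42.0, limma-voom (limma 3.58.1), DESeq2 size factors, the library total as the scale, no filter, filterByExpr, a minimum of 10 counts throughout one group, all deposited entries, the longest transcript as the length, and leaving out each library. Tables and plots were made in Python 3.11.15 (pandas 2.3.3, numpy 2.4.6, matplotlib 3.10.9).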

Additional observations from a re-analysis of the deposited data

Results flagged for a closer look

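For 49 of the members, those named by the rule and Mmp13, the highest or lowest of the 4 NTG libraries was compared with the others by Dixon's test, which chance alone passes in about 1 of 20 groups. It was passed by 4 of them, each through a high value in NTG 3. Adamts1 had 1571 normalized counts in NTG 3 and 519 to 650.2 in the other NTG libraries, and without NTG 3 its Log2FC was -0.81 (adjusted p = 0.00528, edgeR). Col15a1 had 914.6 against 726 to 738, and without NTG 3 its Log2FC was 0.63 (adjusted p = 0.00163). Timp4 had 615.6 against 382 to 393 and stayed uncalled without NTG 3 (Log2FC -0.25, adjusted p = 0.35). Col8a1 had 429 against 243 to 258 and also stayed uncalled (Log2FC 0.27, adjusted p = 0.071). Of the 94 members, 52 had their highest NTG value in NTG 3 and 14 in each of the other NTG libraries.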

How the results depend on the processing

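The methods describe the NTG mice as littermates, but the labels give no litter, so no paired analysis was made. With DESeq2, limma-voom, other scalings, other filters and all deposited entries, 20 to 25 of the 94 members were called (22 as reported) and 2417 to 2655 of all genes (2519 as reported), the other pathway genes kept between 19 and 24, and the family counts stayed within 1.5 times except in limma-voom, where 0 lysyl oxidases and 2 metalloproteinases were called. Scaling by the library total alone moved the median Log2FC of all genes from 0.00 to 0.03. Leaving out 1 library in turn gave 1373 to 2950 called genes (704 to 1471 higher, 669 to 1479 lower), 11 to 28 members (8 to 23 higher, 2 to 5 lower), 5 to 13 collagens, 2 to 3 laminins, 1 to 4 metalloproteinases, 1 to 2 Timp genes, 1 to 5 ADAMTS genes, 0 to 1 lysyl oxidases and 11 to 36 other pathway genes. With fewer libraries these fits have fewer degrees of freedom. The sign of the Log2FC in these fits was read for 49 members, those named by the rule and Mmp13, and not for the others. It turned for 5 of the 49, none of which was ever called: Mmp14 (-0.238 to 0.0671), Timp1 (-0.107 to 0.345), Mmp9 (-0.35 to 0.243), Adamtsl5 (-0.135 to 0.0157) and Col8a1 (-0.0479 to 0.268). No called member changed sign in any fit. Ratios between genes moved with the length chosen (Col1a1 to Col1a2 in NTG, 1.51 with merged exons and 0.72 with the longest transcript). Depth limits the 23 members with a mean count under 10, of which none was called.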

Other observations

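The type IV collagen genes lie in head-to-head pairs, and the minor pairs were read as well, chosen after their values were seen. The starts of Col4a3 and Col4a4 lie 72 bases apart on chromosome 1, and the ratio of Col4a4 to Col4a3 per length was 1.03 ± 0.17 (SD, n = 4) in NTG and 1.20 ± 0.14 (SD, n = 3) in mNrf2-TG, with the libraries overlapping. Col4a5 and Col4a6 lie 1309 bases apart on chromosome X. Col4a5 exceeded Col4a6 per length 33.7- to 94.2-fold in NTG and 44.6- to 70.5-fold in mNrf2-TG, where Col4a6 had at most 19.4 normalized counts.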
